A study of Homo sapiens with 9 samples.

Results

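Keratins are the intermediate filament proteins of epithelia, and each filament is built from heterodimers of a type I and a type II chain. KRT5 and KRT14 form the classical pair of the basal layer of stratified and glandular epithelia, and KRT15 is a further type I chain of basal cells. KRT6A, KRT6B and KRT6C (type II) and KRT16 and KRT17 (type I) are the chains that skin keratinocytes switch on after wounding and in hyperproliferation. The results below cover these 8 genes out of 57796 gene symbols in the series. They were chosen by name, with earlier results of these data known. Of the 8, 7 passed the filter on low counts, as did 15109 genes of the whole series, and KRT6C did not.

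The cells were MCF10A-YAP, a non-transformed human mammary epithelial line (MCF10A) that carries a constitutively active form of the transcriptional coactivator YAP, so YAP is active in all groups, the controls included. Poly(A) RNA was sequenced from cells with the guide TRAM2-KO2, cells with the guide TRAM2-KO1 and control cells with a non-targeting sgRNA, with 3 libraries in each group, lettered A to C. Both tested guides target TRAM2, which codes for a translocation-associated membrane protein of the endoplasmic reticulum, and the cells were selected with an antibiotic after transduction, with no mention of clones. The series' design text speaks of biological replicates but describes other groups, and the labels do not say that the libraries of a group came from separate cultures, so the p-values measure the spread between these libraries, which may be technical.

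Between 21.7 M and 27.6 M reads were assigned per library. TRAM2 was lower with both guides, at 210 to 216 CPM (read counts scaled to a common library size) in TRAM2-KO2 cells and 203 to 219 CPM in TRAM2-KO1 cells, against 464 to 481 CPM in control cells. Its fold change was -1.16 on the log2 scale in TRAM2-KO2 cells (SE 0.0326, adjusted p = 4.19e-08 by edgeR) and -1.17 in TRAM2-KO1 cells (SE 0.0326, adjusted p = 4.41e-08). The median log2 change over all genes tested lay between -0.00754 and 0.00501 in the 4 comparisons. In a library's deviation from the gene means, the rank correlation with the GC content of the genes was -0.605 and -0.423 in TRAM2-KO1 libraries B and C, and between -0.114 and 0.469 in the other 7 libraries. The member genes have a GC content of 55.6% to 61.0%, above the median of 47.6% of the genes tested, and for that reason results after removal of this trend stand beside those below where a call changes.

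In GRCh37 coordinates (GENCODE release 44 lifted to that build, which need not be the authors' build), all 8 genes lie on the minus strand in the 2 keratin clusters of the genome. The type II genes KRT6B, KRT6C, KRT6A and KRT5 span 73.9 kb of chromosome 12, with KRT6B at chr12:52840435-52845930, KRT6C at chr12:52862300-52867589, KRT6A at chr12:52880960-52887041 and KRT5 at chr12:52908359-52914314. The type I genes KRT15, KRT14, KRT16 and KRT17 span 111.1 kb of chromosome 17, with KRT15 at chr17:39669997-39678781, KRT14 at chr17:39738531-39743147, KRT16 at chr17:39766030-39772151 and KRT17 at chr17:39775694-39781094. The main coding transcripts of the type II genes have 9 exons and those of the type I genes 8.

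The genes of each cluster are close copies, which bears on how reads were shared out among them. The coding sequences of KRT6B and KRT6C are 98.47% identical, those of KRT6A and KRT6C 97.94% and those of KRT6A and KRT6B 97.46%, with 43 differing bases out of 1695 for the last pair. The most divergent stretch of 90 coding bases is shown for the 3 KRT6 genes, because it is the coding stretch of this length with the most positions that tell them apart. It runs over coding bases 656 to 745, counted from the start codon, and capitals mark the 10 positions at which the 3 genes are not all alike. The median over all 1606 windows of this length was 2 such positions.

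KRT6A: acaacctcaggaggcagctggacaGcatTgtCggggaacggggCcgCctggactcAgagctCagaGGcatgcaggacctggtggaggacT
KRT6B: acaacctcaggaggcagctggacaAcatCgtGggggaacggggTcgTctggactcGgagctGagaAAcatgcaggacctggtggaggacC
KRT6C: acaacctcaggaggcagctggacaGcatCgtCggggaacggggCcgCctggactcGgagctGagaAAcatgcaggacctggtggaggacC

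The type I genes differ more. KRT14 and KRT16 are 87.53% identical over their aligned coding bases, KRT14 and KRT17 83.83%, and KRT16 and KRT17 78.01%. The most divergent 90 bases of these 3 genes, shown for comparison with the KRT6 stretch, hold 36 positions that differ (capitals) against a median of 18 over 944 windows, and start at coding base 468 of KRT14, 474 of KRT16 and 375 of KRT17.

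KRT14: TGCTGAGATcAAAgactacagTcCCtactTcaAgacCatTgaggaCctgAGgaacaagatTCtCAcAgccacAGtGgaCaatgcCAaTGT
KRT16: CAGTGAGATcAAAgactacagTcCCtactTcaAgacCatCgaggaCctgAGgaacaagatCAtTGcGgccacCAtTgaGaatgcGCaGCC
KRT17: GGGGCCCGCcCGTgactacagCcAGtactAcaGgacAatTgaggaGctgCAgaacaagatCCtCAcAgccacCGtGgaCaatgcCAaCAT

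Of the 31-base words in the main coding transcript, 94.6% in KRT15 and 91.8% in KRT5 occur in no other annotated gene. The share was 62.3% in KRT17, 60.9% in KRT16, 53.2% in KRT14, 47.3% in KRT6A, 42.2% in KRT6B and 38.9% in KRT6C. KRT6B shares 52.6% of its words with KRT6C and 40.6% with KRT6A. KRT14 shares 18.2% with KRT16, and KRT14, KRT16 and KRT17 share further words with pseudogenes. The 14 pseudogenes named for KRT16 and KRT17 held 18.3 estimated reads in all 9 libraries together. The values of KRT6A, KRT6B and KRT6C, and to a lesser degree those of KRT14, KRT16 and KRT17, are therefore estimates that divide shared reads, and pooled values are given with the results.

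**Figure D1:**
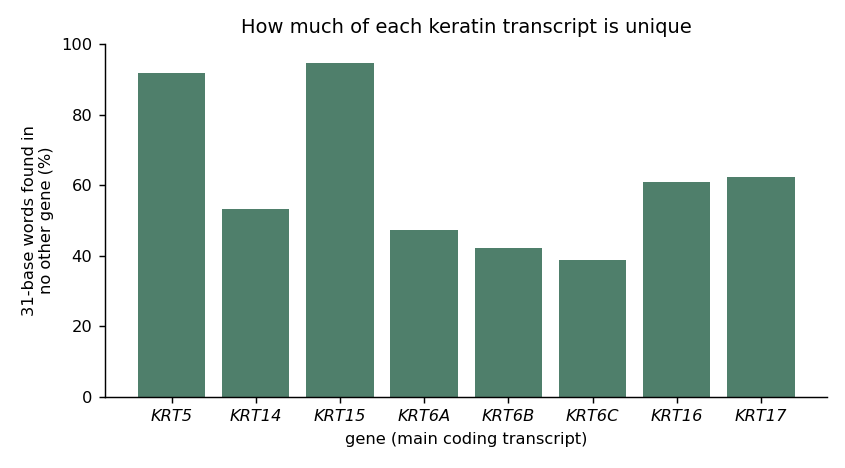
Percentage of 31-base words of each gene's main coding transcript (bars) that occur in no other gene of the annotation, for the 8 keratin genes. KRT15 (94.6%) and KRT5 (91.8%) stand above the other 6, and KRT6C is lowest at 38.9%.

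Compared per length of transcript (TPM, the share of all transcripts on a scale common to all libraries), KRT5 was the most abundant member and KRT6A the next in every library. KRT5 stood at 1420 to 1458 TPM in TRAM2-KO2 cells and 1149 to 1251 TPM in TRAM2-KO1 cells, against 1260 to 1337 TPM in control cells, where it ranked 120th among all genes. KRT6A stood at 873 to 890 TPM in TRAM2-KO2 cells and 709 to 800 TPM in TRAM2-KO1 cells, against 718 to 740 TPM in control cells. KRT17, the main type I member, stood at 497 to 535 TPM in TRAM2-KO2 cells and 443 to 497 TPM in TRAM2-KO1 cells, against 440 to 449 TPM in control cells. KRT14, the usual partner of KRT5, was at a far lower level than KRT5, with 18.2 to 19.3 TPM in TRAM2-KO2 cells and 13.5 to 14.4 TPM in TRAM2-KO1 cells, against 11.5 to 12.7 TPM in control cells.

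The order of levels per length was KRT5, KRT6A, KRT17, KRT15, KRT16, KRT14, KRT6B and KRT6C in all 3 groups, and in none of them did the libraries of neighbours in this order overlap. KRT5, KRT6A and KRT17 together made up 95.9% to 96.2% of the members' summed TPM in TRAM2-KO2 cells and 97.2% to 97.3% in TRAM2-KO1 cells, against 97.4% to 97.7% in control cells. The 8 genes together took 0.293% to 0.297% of all TPM in TRAM2-KO2 cells and 0.246% to 0.253% in TRAM2-KO1 cells, against 0.248% to 0.259% in control cells. The TRAM2-KO2 libraries lay above all others, and the TRAM2-KO1 and control libraries overlapped.

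**Figure D2:**
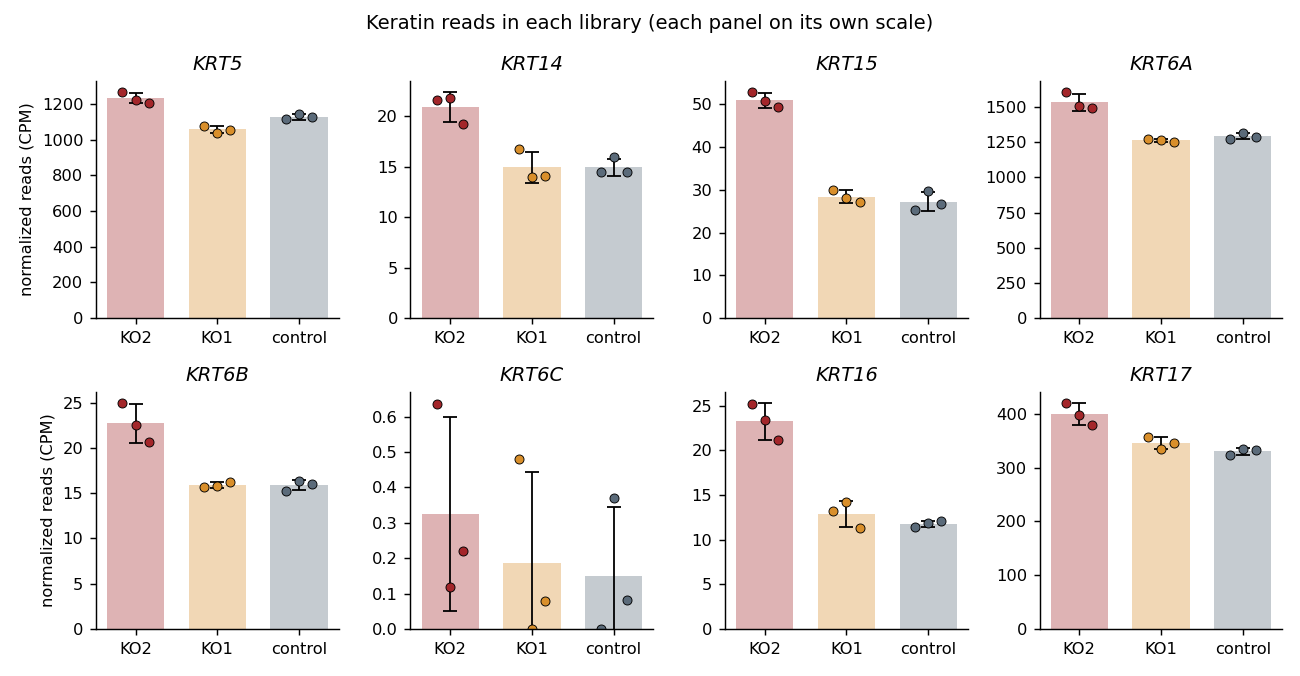
Normalized reads (CPM) of each keratin gene in each library (points) with the mean (bar) and SD (error bar) of 3 libraries in TRAM2-KO2, TRAM2-KO1 and control cells, each panel on its own axis starting at 0. In 7 panels all 3 TRAM2-KO2 points lie above all other points, and KRT6C stays below 0.635 CPM in all libraries.

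The comparison of TRAM2-KO2 with control cells asked which keratin genes differed with this guide. All 7 members that could be tested rose (edgeR, adjusted p under 0.05), where 1.75% of all genes tested were higher and 2.5% lower. KRT15, KRT16 and KRT6B rose by more than 0.5 on the log2 scale, as 0.351% of all genes did with an adjusted p under 0.05. KRT6B was only just past that size, and stood at 0.44 without TRAM2-KO2 library A and 0.49 without control library A. The median of the 7 log2 changes was 0.48, against -0.00314 over all genes. All 3 TRAM2-KO2 libraries lay above all 3 control libraries for each of the 7, which held for 11.3% of all genes.

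Among the basal chains, KRT5 had 1265, 1223 and 1208 CPM in TRAM2-KO2 cells, against 1114, 1145 and 1125 CPM in control cells. The groups did not overlap, but the change was small, at 0.13 on the log2 scale (SE 0.0273, 95% interval 0.07 to 0.19, adjusted p = 0.0269). The call for KRT5 was lost without control library A, B or C and without TRAM2-KO2 library A or B, with adjusted p between 0.0792 and 0.127 and changes between 0.11 and 0.14.

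KRT14, the type I partner of KRT5, had 21.7, 21.9 and 19.2 CPM in TRAM2-KO2 cells, against 14.4, 15.9 and 14.5 CPM in control cells. All 3 TRAM2-KO2 libraries were the higher ones, by 0.48 on the log2 scale (SE 0.0842, adjusted p = 0.00871). Without control library A the change was 0.46 and the adjusted p 0.0530, and with only protein-coding transcripts counted it was 0.41 with an adjusted p of 0.102.

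KRT15 had 52.8, 50.7 and 49.4 CPM in TRAM2-KO2 cells, against 25.3, 29.6 and 26.7 CPM in control cells. The lowest TRAM2-KO2 library was well above the highest control library, and the change of 0.90 (SE 0.0623, adjusted p = 2.47e-05) was the most precisely measured of the larger ones. KRT15 is also the member with the most unique sequence.

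Among the wound-induced chains, KRT16 had 25.2, 23.4 and 21.1 CPM in TRAM2-KO2 cells, against 11.4, 11.8 and 12.05 CPM in control cells. It showed the largest change of the 7, at 0.98 on the log2 scale (SE 0.0895, adjusted p = 0.000141), with a 95% interval of 0.78 to 1.18 that overlaps that of KRT15 (0.77 to 1.04). KRT17, which skin keratinocytes express together with KRT16 and the KRT6 chains after injury, had 420.0, 397 and 379 CPM in TRAM2-KO2 cells, against 323, 334 and 333 CPM in control cells. Its libraries did not overlap either, at a smaller change of 0.27 (SE 0.0399, adjusted p = 0.00303).

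KRT6A had 1604, 1507 and 1494 CPM in TRAM2-KO2 cells, against 1274, 1315 and 1287 CPM in control cells, a change of 0.25 (SE 0.0306, adjusted p = 0.00100). KRT6B had 25.0, 22.6 and 20.7 CPM in TRAM2-KO2 cells, against 15.3, 16.4 and 16.1 CPM in control cells, a change of 0.52 (SE 0.0707, adjusted p = 0.00203). Both genes were higher in every TRAM2-KO2 library. With the reads of KRT6A, KRT6B and KRT6C pooled, the change was 0.25 (SE 0.0309, adjusted p by edgeR 0.00100). With KRT14, KRT16, KRT17 and their pseudogenes pooled it was 0.31 (SE 0.0409, adjusted p = 0.0016). These pools mostly hold KRT6A and KRT17, with means of 31566 and 8068 reads in control libraries. KRT6B, KRT14 and KRT16 had means of 388, 366 and 288 reads there. The pooled rises therefore do not show whether the changes of KRT6B, KRT14 and KRT16 depend on how shared reads were divided.

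KRT6C was close to the limit of detection. It had 17.2, 2.58 and 6.22 estimated reads in TRAM2-KO2 libraries and 13.3, 0 and 2.37 in TRAM2-KO1 libraries, against 0, 9.39 and 2.36 in control libraries. The groups overlapped throughout. A count of 0 allows up to 3 reads, or 0.122 CPM in control library A and 0.139 CPM in TRAM2-KO1 library B, and such limits cover counting error only. No fold change is given, as libraries of the groups lay at or below that limit.

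The less abundant members showed the larger changes. KRT14, KRT15, KRT16 and KRT6B, all at or below 31.01 TPM in control cells, rose by 0.48 to 0.98, and KRT5, KRT6A and KRT17, all at or above 440 TPM, by 0.13 to 0.27. The ratio of KRT5 to KRT14 in TPM was 73.5 to 80.1 in TRAM2-KO2 cells and 84.8 to 89.9 in TRAM2-KO1 cells, against 106 to 111 in control cells. The TPM of KRT14 includes the short transcript KRT14-203, which had no reads in control libraries. KRT16 amounted to 5.43% to 6.06% of KRT17 in TRAM2-KO2 cells and 3.19% to 4.25% in TRAM2-KO1 cells, against 3.30% to 3.63% in control cells. These ratios are descriptions over 3 libraries a group and were not tested.

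The comparison of TRAM2-KO1 with control cells gave another picture for the same genes, with the same control libraries. None of the 7 members passed the test (edgeR), where 0.761% of all genes were higher and 2.2% lower. The median log2 change was 0.00358, against 0.00501 over all genes. At an unadjusted p under 0.05 there was 1 member, KRT5, and with DESeq2 that 1 member passed the adjusted threshold.

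KRT5 had 1078, 1038 and 1055 CPM in TRAM2-KO1 cells, against 1114, 1145 and 1125 CPM in control cells. All TRAM2-KO1 libraries lay below the control libraries, as 11.1% of all genes did, by -0.09 on the log2 scale (SE 0.0273, 95% interval -0.15 to -0.03, adjusted p = 0.107). The adjusted p was 0.0212 with DESeq2 and 0.0316 without TRAM2-KO1 library A, where the change was -0.11. After removal of the GC trends the KRT5 change was -0.0195 (adjusted p = 0.759).

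KRT17 had 358, 335 and 345 CPM in TRAM2-KO1 cells, against 323, 334 and 333 CPM in control cells. The TRAM2-KO1 libraries lay just above, without overlap, as 11.9% of all genes did, at 0.07 (SE 0.04, adjusted p = 0.398). After removal of the GC trends the KRT17 change was 0.16 with an adjusted p of 0.00463, a rise. For the other 5 the TRAM2-KO1 and control libraries overlapped, with log2 changes between -0.03 (KRT6A) and 0.13 (KRT16, 95% interval -0.08 to 0.34). The 95% interval of the TRAM2-KO1 change was -0.19 to 0.19 for KRT14, -0.08 to 0.21 for KRT15 and -0.16 to 0.17 for KRT6B.

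The 2 guides were then compared directly, since a call with one guide and none with the other does not show a difference. All 7 members were higher in TRAM2-KO2 than in TRAM2-KO1 cells (edgeR), where 1.42% of all genes were higher and 0.867% lower. KRT15, KRT16 and KRT6B passed that test with a difference of more than 0.5, as did 0.417% of all genes. All TRAM2-KO2 libraries lay above all TRAM2-KO1 libraries for each of the 7, as for 9.52% of all genes. The median log2 difference was 0.48.

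KRT15 had 52.8, 50.7 and 49.4 CPM in TRAM2-KO2 cells, against 30.0, 28.03 and 27.1 CPM in TRAM2-KO1 cells, a difference of 0.84 (SE 0.062, adjusted p = 0.000216). KRT16 had 25.2, 23.4 and 21.1 CPM in TRAM2-KO2 cells, against 13.3, 14.2 and 11.3 CPM in TRAM2-KO1 cells, a difference of 0.85 (SE 0.0886, adjusted p = 0.00100). KRT6B had 25.0, 22.6 and 20.7 CPM in TRAM2-KO2 cells, against 15.7, 15.8 and 16.3 CPM in TRAM2-KO1 cells, a difference of 0.51 (SE 0.0706, adjusted p = 0.00489). These 3 genes kept an adjusted p under 0.05 without any 1 of the 9 libraries and in each other alternative fit in which they were tested as single genes, but the KRT6B difference was 0.44 without TRAM2-KO2 library A and 0.45 with the GC trend removed, below the 0.5 limit.

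KRT6A had 1604, 1507 and 1494 CPM in TRAM2-KO2 cells, against 1275, 1264 and 1253 CPM in TRAM2-KO1 cells, a difference of 0.28 (adjusted p = 0.00129). KRT5 had 1265, 1223 and 1208 CPM in TRAM2-KO2 cells, against 1078, 1038 and 1055 CPM in TRAM2-KO1 cells, a difference of 0.22 (adjusted p = 0.00270). Both groups of libraries were apart in each gene.

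KRT14 differed by 0.48 (SE 0.0841, adjusted p = 0.0183), with 21.7, 21.9 and 19.2 CPM in TRAM2-KO2 cells against 16.8, 13.99 and 14.1 CPM in TRAM2-KO1 cells. KRT17 differed by 0.21 (SE 0.0398, adjusted p = 0.0276), with 420.0, 397 and 379 CPM in TRAM2-KO2 cells against 358, 335 and 345 CPM in TRAM2-KO1 cells. These were the least stable calls, and with the GC trend removed the KRT17 difference was 0.12 (adjusted p = 0.0375). Without TRAM2-KO1 library B or C, or TRAM2-KO2 library A or B, the adjusted p lay between 0.0509 and 0.0884 for KRT14 and between 0.0620 and 0.112 for KRT17, which also stood at 0.0519 without control library B. TRAM2 itself did not differ detectably between the guides, at 0.01 (95% interval -0.06 to 0.08, adjusted p = 0.878).

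**Figure D3:**
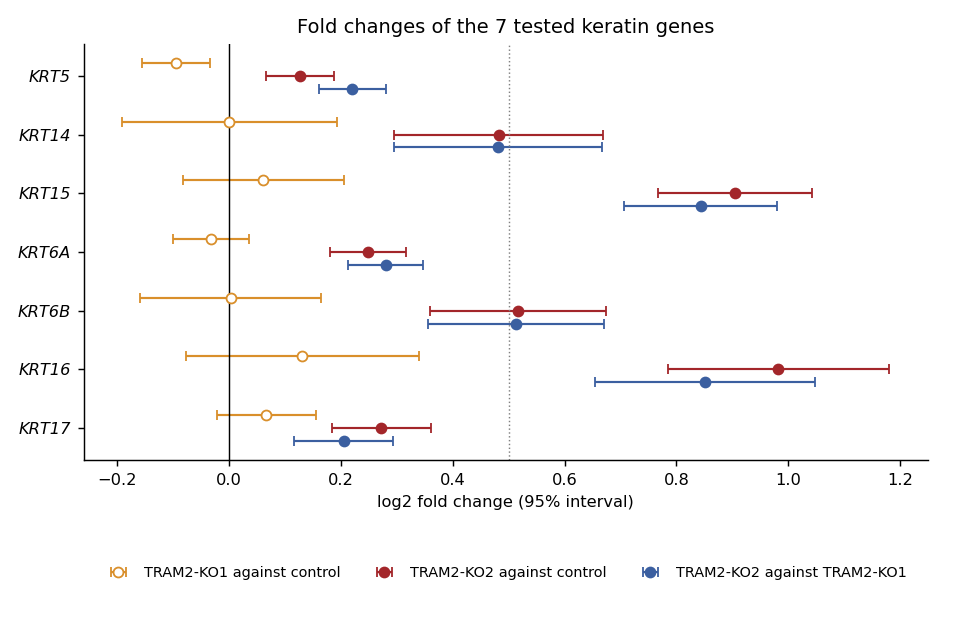
Log2 fold change (x axis, points) with 95% interval (bars) of the 7 tested keratin genes in 3 comparisons, namely each guide with control and the guides with each other, where filled points have an adjusted p under 0.05 and the dotted line marks 0.5. Every point for TRAM2-KO2 is filled, between 0.13 and 0.98, and every point that sets TRAM2-KO1 beside control is open, between -0.09 and 0.13.

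With the mean of both guides set against control, KRT15 (0.48), KRT16 (0.56), KRT17 (0.17) and KRT6B (0.26) rose, where 1.34% of all genes were higher. Of the members, KRT16 alone rose by more than 0.5, as did 0.139% of all genes at an adjusted p under 0.05. KRT6A stood at 0.11 with an adjusted p of 0.0505. This mean combines guides that differ for each of these genes. Without control library A, B or C, TRAM2-KO1 library C or TRAM2-KO2 library B, 2 members passed.

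**Figure D4:**
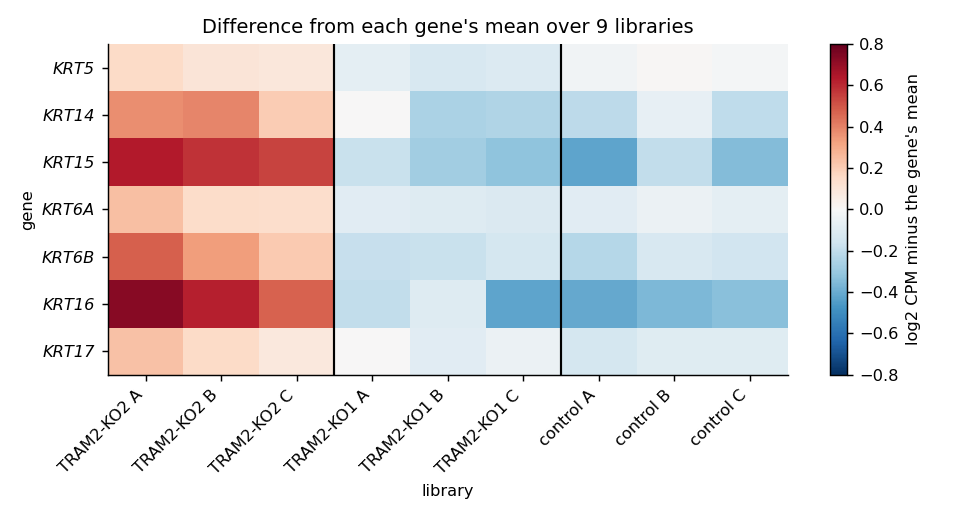
Difference of each library (columns) from the mean of the gene over 9 libraries (rows), in log2 CPM, for the 7 tested keratin genes, with red above and blue below the mean. Every tile of the TRAM2-KO2 columns is red in all 7 rows, with the deepest colour for KRT16 in library A, and the TRAM2-KO1 and control columns are blue or near white.

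The annotation holds 43 transcripts of the 8 genes, of which 42 had reads in some library and 33 passed the filter. In TRAM2-KO2 against control, 3 of the 33 rose, where 0.0777% of the 55376 transcripts tested did: the main coding transcripts of KRT15 (KRT15-201, 1.03), KRT16 (KRT16-201, 1.07) and KRT6A (KRT6A-201, 0.26). Their adjusted p (edgeR over all transcripts) was 0.0373, 0.0467 and 0.0231. Without control library A, B or C, or TRAM2-KO2 library B, no member transcript passed, and without TRAM2-KO1 library A or C, or TRAM2-KO2 library A, 1 did. In TRAM2-KO2 against TRAM2-KO1, KRT6A-201 was higher by 0.31 (adjusted p = 0.0402), where 0.0126% of transcripts were. That call was lost without control library A, B or C, TRAM2-KO1 library B or C, or TRAM2-KO2 library B. In TRAM2-KO1 against control no member transcript passed in edgeR, where 0.0325% of all transcripts were higher and 0.137% lower. At an unadjusted p under 0.05 there were 4 of the 33, with no share over all transcripts to set beside them.

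Some minor transcripts had another pattern than their gene. KRT5-206, a transcript with a retained intron, had 2011, 1607 and 1329 estimated reads in TRAM2-KO2 libraries and 1480, 634 and 622 in TRAM2-KO1 libraries, against 1166, 1457 and 1445 in control libraries. TRAM2-KO1 libraries B and C, those with the GC trend of -0.605 and -0.423, were the low ones. KRT6A-203, also with a retained intron, had 293, 151 and 390 reads in TRAM2-KO2 libraries and 268, 672 and 536 in TRAM2-KO1 libraries, against 222, 190.1 and 192 in control libraries, so that the same libraries B and C were the high ones. The part of the GC trend in these values was not tested per transcript. KRT6A as a whole averaged 1264 CPM in TRAM2-KO1 cells and 1292 CPM in control cells. Yet its TPM reached 800 in TRAM2-KO1 library B, against at most 740 in control cells. TPM, unlike CPM, weighs each read by the length of its transcript.

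KRT14-203, a retained-intron transcript, had 40.1, 0 and 46.3 estimated reads in TRAM2-KO2 libraries and 24.2, 30.8 and 40.1 in TRAM2-KO1 libraries, against 0 in all 3 control libraries. It took up to 11.1% of the KRT14 reads, and the test gave no call for it (adjusted p = 0.676 in TRAM2-KO2 and 0.575 in TRAM2-KO1 cells against control). KRT17-201, the main KRT17 transcript, had 8266, 7998 and 7400 reads in TRAM2-KO2 libraries and 7301, 5069 and 5616 in TRAM2-KO1 libraries, against 5428, 5759 and 5765 in control libraries. It was highest in the TRAM2-KO2 libraries without passing the test (0.38, adjusted p = 0.326), and KRT17-202 overlapped between all groups.

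With the average transcript length of each gene in each library taken into account through offsets, KRT5 (0.13, adjusted p = 0.264) and KRT17 (0.20, adjusted p = 0.192) lost their call in TRAM2-KO2 against control cells. In TRAM2-KO2 against TRAM2-KO1 cells KRT5 (0.22), KRT14 (0.40), KRT17 (0.12) and KRT6A (0.20) did, with adjusted p between 0.0833 and 0.411. KRT15, KRT16 and KRT6B passed in both comparisons.

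**Figure D5:**
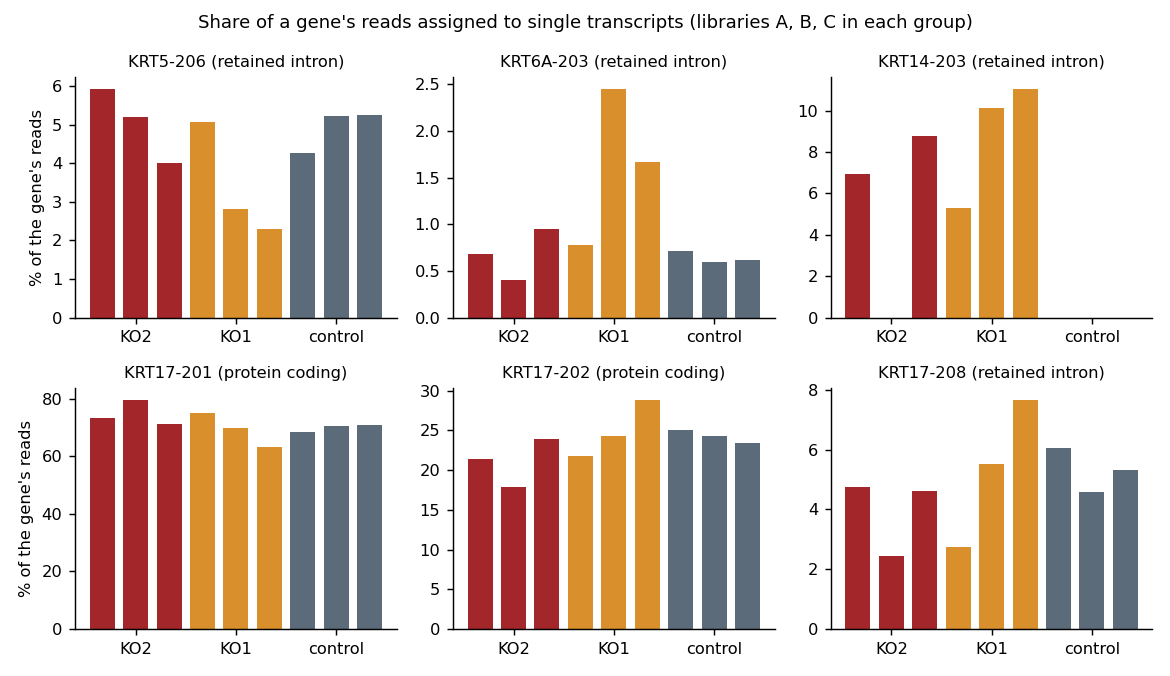
Share of a gene's estimated reads (y axis, percent) assigned to 6 member transcripts in each library (bars, A to C in each group of TRAM2-KO2, TRAM2-KO1 and control cells). KRT14-203 is at 0 in all control libraries and in TRAM2-KO2 library B, and in TRAM2-KO1 libraries B and C the share of KRT5-206 is low (2.82% and 2.29%) and that of KRT6A-203 high (2.45% and 1.67%).

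Other genes of the keratin system were read from lists of 4 kinds. Of 27 other genes of the 2 keratin clusters, 11 were tested, and 3 of these rose in TRAM2-KO2 cells, none passed in TRAM2-KO1 cells and 2 were higher in TRAM2-KO2 than in TRAM2-KO1 cells. Without TRAM2-KO1 library A, 2 passed in TRAM2-KO1 cells and 6 between the guides. KRT13, a type I chain of moist stratified epithelia, had 22.9 ± 2.99 CPM in TRAM2-KO2 cells, against 10.5 ± 0.26 CPM in control cells (SD, n = 3 each), a change of 1.12 (adjusted p by edgeR 0.000141), and it stood at 13.0 ± 1.39 CPM in TRAM2-KO1 cells (0.30, adjusted p = 0.171). KRT4, the type II partner of KRT13, rose by 0.50 and KRT80, another type II chain, by 0.34 with TRAM2-KO2. KRT19, a chain of simple epithelia, was barely detected, at 0.525 ± 0.116 CPM in TRAM2-KO2 cells and 0.386 ± 0.0735 CPM in TRAM2-KO1 cells, against 0.232 ± 0.0476 CPM in control cells, and did not pass.

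Of 21 genes for proteins that link or bind keratin filaments, 20 were tested: 5 rose and 1 fell in TRAM2-KO2 cells, 1 fell in TRAM2-KO1 cells, and 6 were higher and 1 lower in TRAM2-KO2 than in TRAM2-KO1 cells. Without TRAM2-KO1 library A, 10 passed in TRAM2-KO1 cells and 13 between the guides, and without control library A, 3 passed in TRAM2-KO2 cells. TRIM29, a tripartite motif protein of basal epithelial cells, rose by 0.60, with 25.6 ± 1.66 CPM in TRAM2-KO2 cells against 16.9 ± 0.739 CPM in control cells. PPL, the cytolinker periplakin, rose by 0.56 and PKP2, a desmosomal plakophilin, by 0.20. PPL lost its call without control library A (adjusted p = 0.0559), and PKP2 without control library A, B or C or TRAM2-KO2 library B or C (adjusted p up to 0.0926). The 1 that fell with TRAM2-KO2 was VIM, the intermediate filament gene of mesenchymal cells, with 400.5 ± 7.5 CPM against 529 ± 9.26 CPM in control cells (-0.40, SE 0.0282, adjusted p = 2.5e-05). With TRAM2-KO1, VIM changed by -0.08 (adjusted p = 0.164). The 1 that fell with TRAM2-KO1 was COL17A1, a hemidesmosomal collagen outside the naming rule and chosen after its values were seen, at -0.22, and it rose by 0.22 with TRAM2-KO2.

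Of 32 genes for regulators of basal and stress keratin genes, 27 were tested: 4 rose and 1 fell in TRAM2-KO2 cells, 2 fell in TRAM2-KO1 cells, and 3 were higher in TRAM2-KO2 than in TRAM2-KO1 cells. In TRAM2-KO2 cells 3 passed with any 1 TRAM2-KO2 or control library left out. In TRAM2-KO1 cells 5 passed without TRAM2-KO1 library A and 0 with any 1 of the other 8 libraries left out. Between the guides 8 passed without TRAM2-KO1 library A, 1 without TRAM2-KO2 library B, and 0 without TRAM2-KO1 library C or TRAM2-KO2 library A or C. The transcription factor genes KLF4 (0.41), SOX9 (0.36) and GRHL2 (0.33) rose with TRAM2-KO2, although with the length offsets GRHL2 turned to -0.04 (adjusted p = 0.983) and KLF4 lost its call. TFAP2A, which codes for AP-2 alpha, fell with both guides, by 0.24 with TRAM2-KO2 and by 0.20 with TRAM2-KO1 on the log2 scale, and lost both calls with the length offsets (adjusted p = 0.534 and 0.476). Its call with TRAM2-KO2 was also lost without any 1 of the TRAM2-KO2 or control libraries (adjusted p up to 0.0963), and that with TRAM2-KO1 without any 1 library other than TRAM2-KO1 library A (up to 0.185).

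Of 36 wound and activation genes of keratinocytes, 20 were tested: 5 rose and 3 fell in TRAM2-KO2 cells, 2 rose and 4 fell in TRAM2-KO1 cells, and 6 were higher in TRAM2-KO2 than in TRAM2-KO1 cells. The count in TRAM2-KO2 cells was 4 without control library B, 5 without control library C or TRAM2-KO2 library B, and 12 without TRAM2-KO1 library B, and that between the guides was 2 without TRAM2-KO2 library A and 3 without TRAM2-KO2 library B. PTGS2, the inducible cyclooxygenase, rose by 0.99 with TRAM2-KO2 and by 0.45 with TRAM2-KO1. ITGA5, a chain of the fibronectin receptor, fell by 0.45 with TRAM2-KO2 and by 0.52 with TRAM2-KO1, and PLAUR, the urokinase receptor gene, fell by 0.25 with TRAM2-KO2 and by 0.22 with TRAM2-KO1. The PLAUR call with TRAM2-KO2 was lost without control library A or B or TRAM2-KO2 library B (adjusted p up to 0.0622), and that with TRAM2-KO1 without control library A or B, TRAM2-KO1 library B or C, or TRAM2-KO2 library B or C (up to 0.13).

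Markers of the cell types that the culture could hold were read with the keratins left out of the basal list. The 14 basal mammary markers summed to 2834 to 3006 TPM in TRAM2-KO2 cells and 2596 to 2749 TPM in TRAM2-KO1 cells. In control cells the sum was 3100 to 3214 TPM, above both guides. Its largest part was ITGB1, named after its values were seen, which averaged 875 TPM with either guide, against 1097 TPM in control cells. Of the next largest, CAV1 (793 against 771 TPM) and ITGB4 (257 against 234 TPM) averaged higher in TRAM2-KO2 than in control cells. LAMB3 averaged lower (521 against 548 TPM). Among the rest of the list, ITGA6, CDH3, MME, ACTA2 and OXTR averaged lower in TPM, and EGFR, COL17A1 and TRIM29 higher. TP63 and CNN1 were barely detected. The basal markers thus went in both directions with TRAM2-KO2. Of the 12 basal markers tested, 2 rose and 3 fell with TRAM2-KO2, and none rose and 6 fell with TRAM2-KO1. TP63, a defining factor of basal cells, averaged 0.0624 CPM in TRAM2-KO2 cells and 0.0806 CPM in TRAM2-KO1 cells, against 0.0545 CPM in control cells, all under the level of 3 reads. The suprabasal squamous list, which includes KRT4 and KRT13, had reads for 9 of 10 symbols and summed to 144 to 155 TPM in TRAM2-KO2 cells and 129 to 131 TPM in TRAM2-KO1 cells, against 127 to 129 TPM in control cells. Of the 7 tested, KRT4 and KRT13 rose with TRAM2-KO2 and none passed with TRAM2-KO1. IVL averaged 62.8 CPM in TRAM2-KO2 cells and 55.8 CPM in TRAM2-KO1 cells, against 61.9 CPM in control cells, KRT10 between 18.3 and 19.8 CPM and TGM1 between 14.3 and 17.7 CPM in the 3 groups. KRT1 averaged at most 0.0536 CPM in each group, and LORICRIN was at 0 in TRAM2-KO1 and control cells. Of the 17 luminal markers, simple keratins included, 13 had reads, PGR, KIT and CSN3 were at 0 and CD24 had no entry among the matched transcripts. They summed to 5406 to 5933 TPM in TRAM2-KO2 cells. The sum was 4763 to 5103 TPM in TRAM2-KO1 cells, against 5179 to 5279 TPM in control cells. Most of it came from KRT7, KRT8 and KRT18. These 3 together had 5027 to 5593 TPM in TRAM2-KO2 and 4441 to 4799 TPM in TRAM2-KO1 cells, against 4842 to 4850 TPM in control cells. Of the 12 luminal markers tested, 1 rose with TRAM2-KO2 and 1 fell with TRAM2-KO1. The part of these shifts in the keratin changes was not tested, and in bulk RNA fewer cells of a type and less RNA per cell cannot be told apart.

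The 10 fibroblast markers summed to 114 to 120 TPM in TRAM2-KO2 cells and 120.4 to 136 TPM in TRAM2-KO1 cells, against 156 to 178 TPM in control cells, and of the 5 tested, 2 fell with TRAM2-KO2 and 1 with TRAM2-KO1. Most of this signal came from FAP and DCN, named after their values were seen. FAP averaged 121 CPM in TRAM2-KO2 cells and 123 CPM in TRAM2-KO1 cells, against 139 CPM in control cells, and fell by 0.20 with TRAM2-KO2. DCN averaged 18.5 CPM in TRAM2-KO2 cells and 29.4 CPM in TRAM2-KO1 cells, against 41.6 CPM in control cells, and fell by 1.17 with TRAM2-KO2 and by 0.50 with TRAM2-KO1. COL1A1 stayed under 1 CPM on average and THY1 was at 0 in TRAM2-KO1 and control cells. The 5 immune markers summed to 35.6 to 42.2 TPM in TRAM2-KO2 cells and 34.0 to 44.1 TPM in TRAM2-KO1 cells, against 41.1 to 45.2 TPM in control cells. CD68 was the only one that passed the filter, at 27.2 CPM in TRAM2-KO2 cells and 29.1 CPM in TRAM2-KO1 cells, against 31.1 CPM in control cells, while PTPRC averaged at most 0.0246 CPM in each group and CD3E was at 0. Of the 4 endothelial markers, PECAM1 had no entry among the matched transcripts, and VWF, CDH5 and KDR summed to at most 0.752 TPM in every library.

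Among the candidates searched, the genes whose profile over the 9 libraries came closest to the mean profile of the members were ALDH1A3, TRIM16, S100A14, LAD1 and KRT80. The measure was the root mean square difference in centred log2 CPM, which was 0.0703, 0.0734, 0.0748, 0.0809 and 0.0816 for these genes in that order. The 10956 candidates had at least 1 CPM and passed a filter on names, out of 13009 tested genes at that level. The filter left out clone-like and antisense names. It also left out any symbol that ends in P and digits, coding genes included. ALDH1A3, a retinaldehyde dehydrogenase gene, rose by 0.52 with TRAM2-KO2 and stood at 0.13 with TRAM2-KO1 (adjusted p = 0.0925), and S100A14, for a calcium-binding protein, rose by 0.56 and stood at -0.06. Since they were chosen for this pattern, these values are a description.

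A RefSeq promoter entry (GRCh38.p14, 250 bases before and 50 after the start) was present for 1 of the 8 genes, KRT5. It held none of 4 motifs on either strand: TATAAA (in 11.5% of all 35116 promoter windows), the AP-1 motif TGANTCA (7.7%), the TEAD motif GGAATG (14.03%) and the SP/KLF motif GGGCGG (44.95%).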

How the data were processed

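Quantification tables from Salmon, run by the authors after adapter trimming with cutadapt (versions, transcript release and genome build not given in the sources used here), list 226030 transcripts for each of 9 libraries. The deposited values used were estimated counts (reads assigned by Salmon's model, not whole) and TPM as the authors deposited them, beside the effective length of each transcript, another value deposited by the authors, which was the same in all libraries. Of the transcripts, 97.5% were matched by identifier to GENCODE release 44 (98.4% to 98.5% of reads), and 92.0% of those had the same length there, as did all 43 member transcripts.

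Estimated counts were summed per gene symbol, rounded, filtered (filterByExpr, minimum 10 reads), TMM-normalized and tested with edgeR 4.0.16 (R 4.3.3), quasi-likelihood, over all 9 libraries with Benjamini-Hochberg adjustment over all 15109 genes. A gene rose or fell at an adjusted p under 0.05, and the limit of 0.5 log2 is the one the study used for both proteins and RNA. SE is the log2 change over the root of the F statistic. Transcripts were tested likewise. The method was tested on simulated counts that held no GC trend, no reads shared between genes and no batch, so it was not tested against these. Alternatives were RLE size factors, DESeq2 1.42.0, other filters, leaving out each library, the replicate block, length offsets, GC trends, protein-coding transcripts and pooled paralogs. No pair of libraries agreed within sampling noise. Word sharing used 31-mers, and coding sequences were aligned with MAFFT 7.526. Sequences come from GENCODE transcripts and RefSeq promoters.

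The members and the gene lists were chosen with earlier results of these data known. Named are all members, TRAM2 and up to 4 genes a list with the smallest p for the mean of both guides. Also named are the 5 genes of most similar profile among the candidates searched. A gene that this rule names is not reported here. Groups follow the sample labels, which the series' design text contradicts in part.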

Additional observations from a re-analysis of the deposited data

Results flagged for a closer look

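For each of the 7 tested keratin genes the change against control differed between the 2 guides in edgeR's test of the difference, TRAM2-KO2 minus TRAM2-KO1. The differences were 0.22 for KRT5, 0.48 for KRT14, 0.84 for KRT15, 0.85 for KRT16, 0.21 for KRT17, 0.28 for KRT6A and 0.51 for KRT6B on the log2 scale, with each gene higher in 3 of 3 TRAM2-KO2 libraries than in any TRAM2-KO1 library. TRAM2-KO1 libraries B and C also differ from the other 7 libraries in their GC trend, and with that trend removed all 7 still passed.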

How the results depend on the processing

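KRT15, KRT16, KRT6A and KRT6B kept their adjusted p under 0.05 in TRAM2-KO2 against control cells, and KRT15, KRT16 and KRT6B their difference between the guides, under each alternative in which they were tested as single genes. For TRAM2-KO2 against control 7 members rose, but 5 with length offsets (without KRT5 and KRT17), 6 with only protein-coding transcripts (without KRT14) and 4 of 4 units with paralogs pooled. For TRAM2-KO2 against TRAM2-KO1 7 members differed, but 3 with length offsets, 5 with only protein-coding transcripts or only the groups compared, and 4 of 4 pooled units. For the mean of both guides 4 rose, and 2 with only protein-coding transcripts. For TRAM2-KO1 against control 0 passed in edgeR, 1 with DESeq2 (KRT5, lower), 1 with the GC trend removed and 1 with that and the replicate block (KRT17, higher). Without 1 library at a time these counts ran between 5 and 7, 5 and 7, 2 and 5, and 0 and 1, with the 1 being KRT5 (lower) without TRAM2-KO1 library A. Alternatives for transcripts were chosen after seeing the data. With a minimum of 5 CPM, 4 member transcripts rose in TRAM2-KO2 against control and 2 differed between the guides, and without 1 library at a time 0 to 2 and 0 to 1 did.

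Whether the letters pair the libraries is not stated in the labels. Correlations of same-letter deviations lay between -0.119 and 0.135, and those of different letters between -0.239 and 0.126. With 3 libraries a group these values cannot settle the question. With the replicate block the counts were 7, 7, 3 and 0 genes, and 0 transcripts in either comparison.

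Changes near 0 in TRAM2-KO1 against control turned sign. KRT14 stood at -0.00079 with RLE size factors, -0.00116 with DESeq2, -0.00719 with no filter, -0.00862 with 5 CPM, -0.000223 with the replicate block and -0.13 with protein-coding transcripts only, and between -0.0913 and 0.0416 without 1 library. KRT6B stood at -0.00554 with no filter and -0.00659 with 5 CPM, and between -0.0321 and 0.0162 without 1 library. KRT6A stood at 0.0576 with length offsets, 0.0271 with the GC trend removed and 0.0269 with that and the replicate block. With length offsets TRIM29 stood at -0.0133, LAD1 at 0.15 and GRHL2 at -1.02 (-0.0389 with TRAM2-KO2, -0.53 for the mean of both guides). Between the guides, without 1 library, TRAM2 ran from -0.00371 to 0.0413 and TFAP2A from -0.0754 to 0.00782. The cause of these moves was not tested. For the mean of both guides, a fit to only the groups compared holds all libraries and so gave no further value. For the 4 other gene lists, length offsets gave the lowest counts in TRAM2-KO2 against control, with 2 other keratins in place of 3, 2 linkers in place of 6, 1 regulator in place of 5 and 3 wound genes in place of 8. KRT6C has too few reads to test.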
